A study of Mus musculus with 8 samples.

Results

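The genes examined were 10 neighbours of Nuak1 on mouse chromosome 10: Hcfc2, Nfyb, Chst11 and Appl2 at lower coordinates than Nuak1, and Ckap4, Tcp11l2, Polr3b, Rfx4, Ric8b and Cry1 at higher ones. They were chosen by name as genes of this stretch, and all 10 were found among the 21165 rows of the count table and passed the filter on low counts. RNA was sequenced from the embryonic cortex of 4 KO and 4 WT embryos at E18.5, shortly before birth. The KO embryos carried a constitutive Nuak1 null allele, detected by a LacZ PCR, in a colony kept on C57Bl/6JRj, and KO animals die at birth. The KO embryos were 2 males and 2 females, the WT embryos 1 male and 3 females. The sample labels name 3 litters and the design text 4. The columns of the table name the genotype only, and neither litter nor sex was inferred from the counts or used in a fit. Libraries are called R1 to R4 within each genotype. A stretch of chromosome inherited with the targeted allele and the loss of NUAK1 cannot be told apart in this design. In a bulk sample, fewer cells of a type and less RNA per cell cannot be told apart either.

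Nuak1 encodes a kinase related to AMPK. Its neighbours belong to unrelated pathways. Polr3b encodes the second-largest subunit of RNA polymerase III, which transcribes transfer RNA and other short RNAs. Cry1 encodes a repressor of the circadian clock that holds back CLOCK and BMAL1 at E-boxes. Nfyb encodes a subunit of NF-Y, the factor that binds CCAAT boxes, and Rfx4 a winged-helix transcription factor of the developing brain. Alleles close to a targeted gene are inherited with it when a line is bred onto another strain.

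The 10 members and Nuak1 lie within 2.49 Mb of chromosome 10, from Hcfc2 at 82158905 to Cry1, which ends at 84647799 (NCBIM37, the assembly behind mm9). The table has 21 rows in this interval. Ckap4 is the nearest member to Nuak1, with 85.7 kb between the gene edges, and Hcfc2 the farthest at 1628.5 kb. Tcp11l2 and Polr3b are neighbours on the same strand, 8.08 kb apart.

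The 250 bases before the start of Tcp11l2 and Polr3b are shown because these members had the smallest p of the 10, and those of Cry1 because they hold motifs of a clock gene and of NF-Y. Sequences are from RefSeq on GRCm38.p6, read 5′ to 3′ along the strand of the gene (plus for Tcp11l2 and Polr3b, minus for Cry1), and capitals mark the motifs searched on both strands: CACGTG (the E-box), CCAAT and TATAAA.
Tcp11l2 (chr10:84576697-84576946): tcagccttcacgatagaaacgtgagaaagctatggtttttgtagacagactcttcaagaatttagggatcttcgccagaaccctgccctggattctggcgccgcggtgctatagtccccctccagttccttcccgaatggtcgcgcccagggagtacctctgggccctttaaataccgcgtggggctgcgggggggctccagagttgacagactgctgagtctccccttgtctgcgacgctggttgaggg
Polr3b (chr10:84622048-84622297): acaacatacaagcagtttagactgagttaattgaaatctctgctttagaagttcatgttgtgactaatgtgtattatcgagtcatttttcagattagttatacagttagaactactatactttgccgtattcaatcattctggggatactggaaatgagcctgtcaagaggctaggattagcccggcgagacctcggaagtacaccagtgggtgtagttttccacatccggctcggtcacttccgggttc
Cry1 (chr10:85185055-85185304): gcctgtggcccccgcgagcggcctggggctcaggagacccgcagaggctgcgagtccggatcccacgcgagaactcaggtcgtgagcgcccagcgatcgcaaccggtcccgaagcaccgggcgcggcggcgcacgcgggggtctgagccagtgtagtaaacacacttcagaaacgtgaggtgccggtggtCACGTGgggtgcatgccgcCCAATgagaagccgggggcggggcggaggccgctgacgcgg

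The Tcp11l2 and Polr3b windows, searched to 50 bases past the start, held none of the 3 motifs. In Cry1, CACGTG began 60 bases and CCAAT 41 bases before the start. The tables matched all 10 members, with 12 promoters. CCAAT was found in 2 members (Rfx4 and Cry1), CACGTG in 2 (Cry1 and Hcfc2) and TATAAA in 0, where 37.4%, 7.2% and 13.6% of all 32544 promoters of this length held them. A match describes letters only and is not evidence of binding.

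Totals lay between 9643711 and 27014858 counts per library. Below, a normalized count is a count scaled to the mean effective library size of 16518046. Nuak1 itself stood at 20.5, 13.7, 11.1 and 11.5 normalized counts in KO R1 to R4 and at 1377, 1445, 1118 and 877 in WT R1 to R4, so every library matched its genotype label. Its log2 fold change was -6.49 (SE 0.22, adjusted p = 1.2e-07, edgeR). All 8 cortical projection neuron markers were detected. KO R1 stood apart: 10 meningeal fibroblast markers summed to 10950 normalized counts there, against 473 to 661 in the other KO libraries and 368 to 517 in WT. The sum of 8 interneuron markers was 5036 to 5521 in KO and 4054 to 4882 in WT, through the neuropeptide gene Npy alone (log2 fold change 0.87, adjusted p = 0.0314, edgeR). The other 7 markers had negative estimates, and without Npy, left out after its value was seen, the sums overlapped, at 2638 to 2951 in KO and 2714 to 3611 in WT. The part of the meningeal markers or of Npy in the results for the neighbours was not tested. Sums of the radial glia, progenitor, endothelial, microglia and projection neuron markers overlapped between genotypes.

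Of the 10 members, 2 had an unadjusted p under 0.05 with edgeR, Polr3b (higher in KO) and Tcp11l2 (lower in KO), where 7.69% of the 12699 genes tested did. The same 2 also passed the thresholds of the study, which add an absolute log2 fold change over 0.25 (4.25% of all genes), and had no overlap between genotypes (4.49% of all genes). After adjustment over all genes, 0 of the 10 passed 0.05 with edgeR (0.0709% of all genes), and the same 2 passed with DESeq2, the tool of the study (0.638% of the 10965 genes to which it gave an adjusted p). The median log2 fold change was -0.03 over the members and -0.01 over all genes tested. The differences of Polr3b and Tcp11l2 had opposite signs, and over the 10 members 4 estimates were positive and 6 negative.

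**Figure D1:**
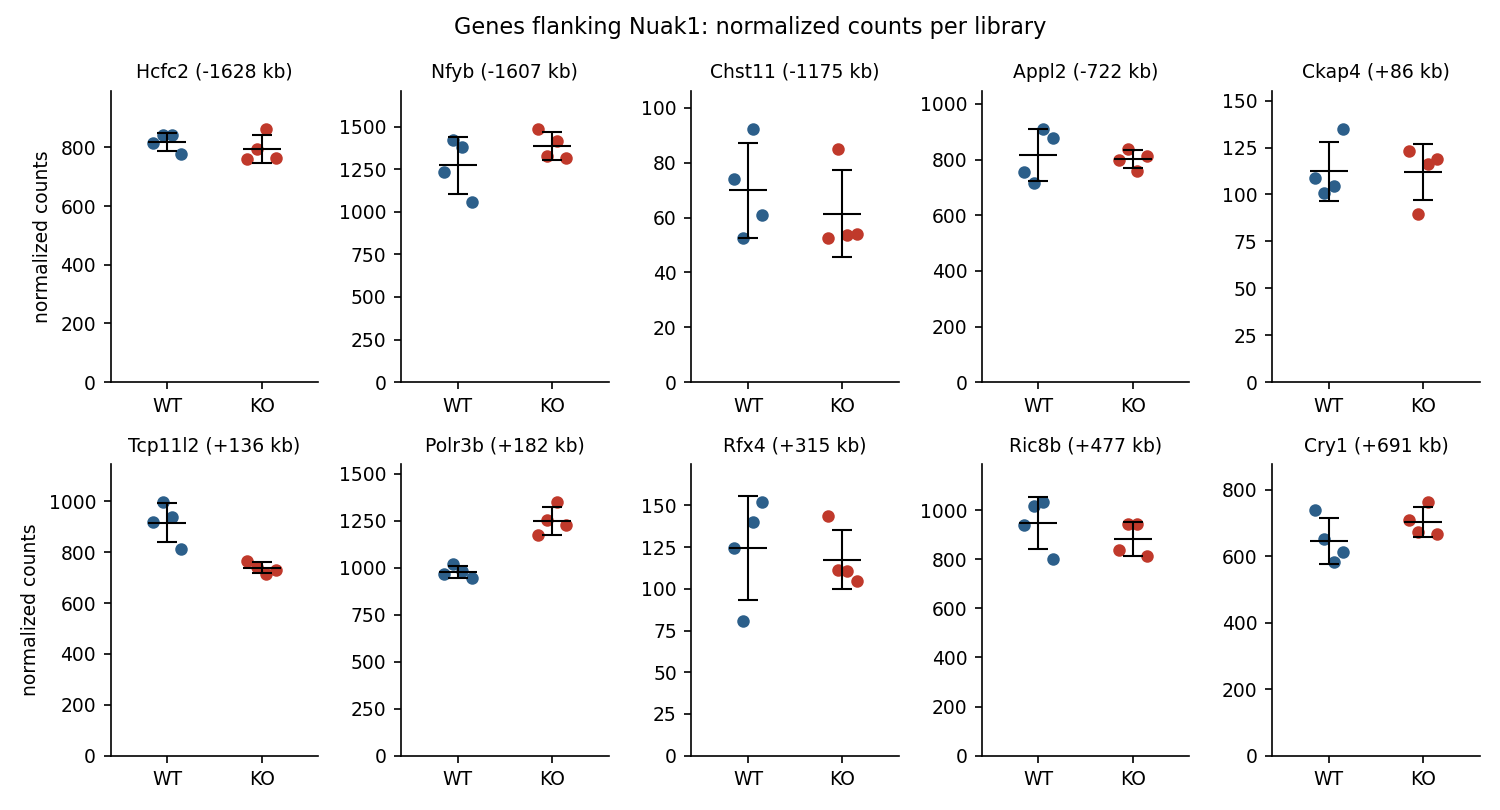
Normalized counts of the 10 members in each library, WT in blue and KO in red, with the mean and SD of 4 libraries as black bars. Each y axis starts at 0, and titles give the distance from Nuak1 in kb. The genotypes separate in Polr3b (WT 943 to 1019, KO 1172 to 1349) and Tcp11l2 (WT 811 to 997, KO 714 to 766) and overlap in the other 8 members.

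Polr3b (ENSMUSG00000034453.7, chr10:84085182-84189922, plus strand) had 1172, 1254, 1349 and 1225 normalized counts in KO R1 to R4 and 964, 1019, 980 and 943 in WT R1 to R4. Every KO library was above every WT library. The means were 1250 ± 74.2 (KO) and 976 ± 32.4 (WT; SD, n = 4 per genotype), a ratio of 1.28. The log2 fold change was 0.36 (SE 0.06, adjusted p = 0.0735, edgeR, rank 15 of all genes by p), and with DESeq2 it was 0.36 with an adjusted p of 9.9e-05. Without KO R1, the library rich in meningeal markers, it was 0.39. In the annotation, an antisense lincRNA, Gm17249, shares 102 bp (2.11%) of the exons of Polr3b. The libraries were made with a stranded kit, but the strand setting of the counting is not given in the sources used here.

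Tcp11l2 (ENSMUSG00000020034.7, chr10:84039371-84077104, plus strand) encodes a protein of the TCP11 family. It had 766, 740, 714 and 732 normalized counts in KO R1 to R4 and 918, 997, 939 and 811 in WT R1 to R4. Every KO library was below every WT library, and the WT libraries were the more spread. The means were 738 ± 21.6 (KO) and 916 ± 77.9 (WT; SD, n = 4 per genotype). The log2 fold change was -0.32 (SE 0.07, adjusted p = 0.261, edgeR, rank 40), a fitted ratio of 0.803. With DESeq2 the log2 fold change was -0.31 with an adjusted p of 0.018.

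The ratio of these adjacent genes within a library does not depend on how libraries are scaled. Polr3b had 1.53, 1.69, 1.89 and 1.67 counts per Tcp11l2 count in KO R1 to R4, and 1.05, 1.02, 1.04 and 1.16 in WT R1 to R4. The means were 1.70 ± 0.15 and 1.07 ± 0.06 (SD, n = 4 per genotype). The pair was chosen after its values were seen, so this is a description without a test.

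**Figure D2:**
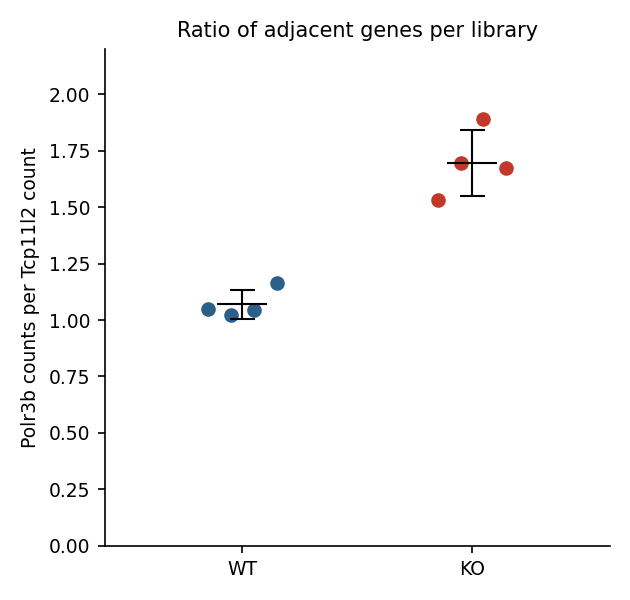
Counts of Polr3b per count of Tcp11l2 in each library (y axis, starting at 0), WT in blue and KO in red, with the mean and SD of 4 libraries in black. KO libraries lie between 1.53 and 1.89 and WT libraries between 1.02 and 1.16.

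The genotypes overlapped in the other members at higher coordinates. Ckap4, the nearest to Nuak1 (chr10:83989050-83996781), encodes a membrane protein of rough endoplasmic reticulum sheets. It had 123, 89.7, 116 and 119 normalized counts in KO and 109, 101, 104 and 135 in WT, with a log2 fold change of 0.01 (SE 0.14, adjusted p = 0.989, edgeR). Rfx4 (chr10:84218807-84369283) had 143, 111, 111 and 105 in KO and 124, 80.6, 140 and 152 in WT, with a log2 fold change of -0.07 (SE 0.19, adjusted p = 0.956, edgeR). In Ckap4 and Rfx4 the lowest library of all 8 was KO R2 and WT R2, respectively.

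Ric8b (chr10:84380361-84479191) encodes a chaperone of G alpha subunits of the stimulatory class. Its normalized counts ranged from 811 to 944 in KO and from 802 to 1033 in WT, and its log2 fold change was -0.11 (SE 0.09, adjusted p = 0.833, edgeR). Cry1 (chr10:84594447-84647799), the farthest member on this side, ranged from 667 to 763 in KO and from 581 to 740 in WT, and its log2 fold change was 0.12 (SE 0.08, adjusted p = 0.795, edgeR). Only 1 WT library, R1, reached into the KO range of Cry1.

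On the other side of Nuak1, 0 of 4 members had an unadjusted p under 0.05, where 7.69% of all genes did. With so few members, this count does not separate the 2 sides. Appl2 (chr10:83062778-83111483), an adaptor of early endosomes that binds RAB5, ranged from 759 to 838 normalized counts in KO and from 717 to 912 in WT, with a log2 fold change of -0.02 (SE 0.08, adjusted p = 0.968, edgeR). Chst11 (chr10:82448243-82658645), a sulfotransferase of chondroitin sulfate, had 52.5, 85.1, 53.8 and 54.0 normalized counts in KO and 74.0, 52.6, 92.5 and 60.8 in WT. Its log2 fold change of -0.21 had an SE of 0.23 (adjusted p = 0.878, edgeR), with a spread between libraries of 25.9% (KO) and 24.9% (WT) of the mean, so a difference of the size seen in Polr3b could not be resolved in these libraries.

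Nfyb (chr10:82211446-82226889) ranged from 1313 to 1489 normalized counts in KO and from 1056 to 1422 in WT, with a log2 fold change of 0.12 (SE 0.09, adjusted p = 0.817, edgeR). Hcfc2 (chr10:82158905-82205173), a relative of the chromatin cofactor HCF-1, ranged from 758 to 864 in KO and from 777 to 842 in WT, with a log2 fold change of -0.04 (SE 0.06, adjusted p = 0.912, edgeR). Levels between members were compared per length, as RPKM computed from these counts with the annotated exons. Mean RPKM ran from 0.766 (Chst11) to 18.7 (Ric8b) in WT and from 0.672 to 17.4 for the same genes in KO.

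**Figure D3:**
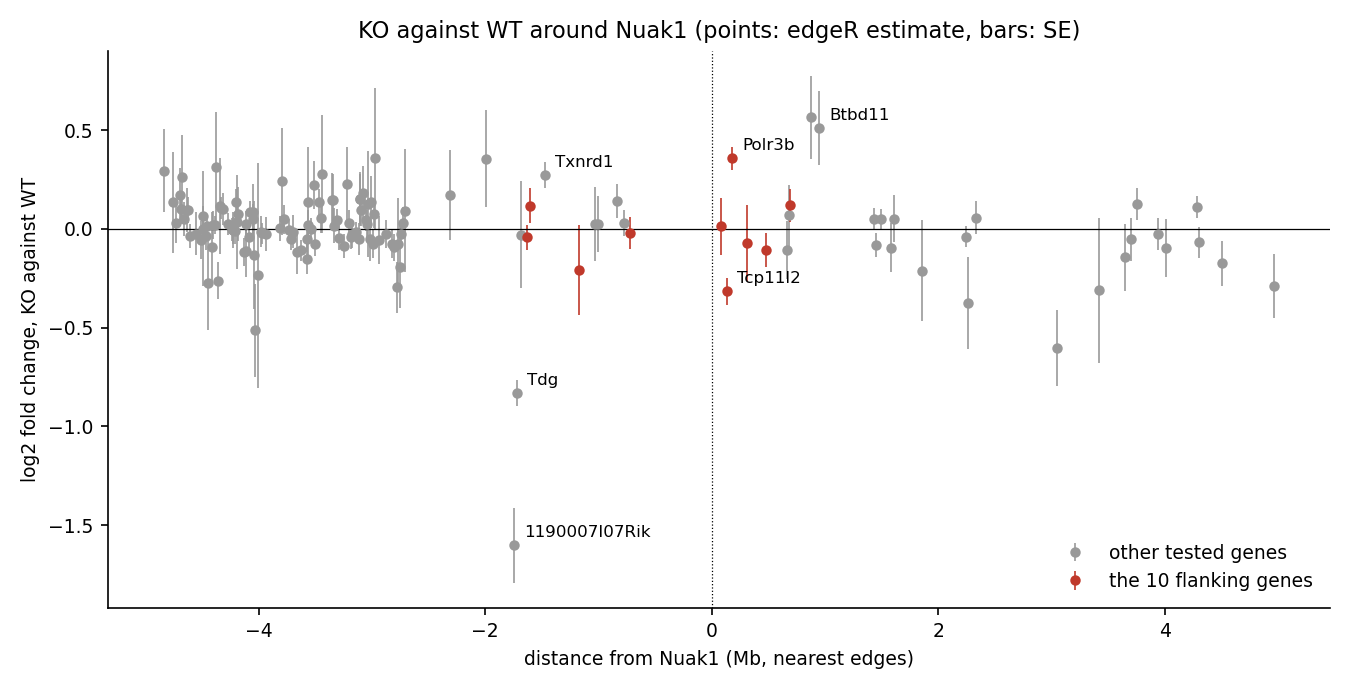
Log2 fold change of KO against WT (y axis; points are edgeR estimates, bars are SE) for tested genes within 5 Mb of Nuak1, by the distance between gene edges in Mb (x axis). The 10 members are red and other genes grey, and Nuak1 at 0 Mb is not drawn. Polr3b (0.36) and Tcp11l2 (-0.32) lie side by side with opposite signs.

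Of the 10 other rows of the interval, 7 were tested. An unadjusted p under 0.05 was found for 7.69% of all genes and for 1 of these 7 (14.3%). This was Txnrd1, a cytosolic thioredoxin reductase, with 4113 ± 183 normalized counts in the KO libraries against 3402 ± 298 in the WT libraries (SD, n = 4 per genotype). Its log2 fold change was 0.27 (SE 0.07, adjusted p = 0.358, edgeR), and the genotypes did not overlap. The log2 fold changes of Slc41a2 (0.03), D10Wsu102e (0.03), Aldh1l2 (0.14), A230046K03Rik (0.03), AI597468 (-0.11) and Mterfd3 (0.07) did not pass. Gm4799 and Gm6613 had 0 counts in every library, and Fhl4 had 1 to 12, too few to be tested. Beyond Cry1, Gm8394 (0.56, adjusted p = 0.591) and Btbd11 (0.51, adjusted p = 0.584) were higher in KO with an unadjusted p under 0.05 (edgeR). They lie 872.9 and 946.2 kb from Nuak1, and both were named after their values were seen. The genotypes overlapped in Btbd11 but not in Gm8394. Just beyond Hcfc2, 1720.1 and 1747.7 kb from Nuak1, Tdg (-0.83, adjusted p = 0.000383) and 1190007I07Rik (-1.60, adjusted p = 0.0154) were lower in KO with edgeR, and both were named after their values were seen. Neither Hcfc2 nor Nfyb, the members closest to them, passed the test. The symbol 1190007I07Rik is an earlier name of Uqcc6, also called Brawnin. The paper presents BRAWNIN as an effector of NUAK1 in axon branching. Besides sequencing, it reports lower Brawnin mRNA by RT-qPCR and reduced branching after Brawnin knockdown. It also reports that added BRAWNIN restored branching in neurons with Nuak1 knocked down. Whether the lower counts of this gene came from the loss of NUAK1 or from a stretch inherited with the targeted allele was not tested.

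The complexes and families of the members were compared in the same fit, and 0 genes of the 10 lists passed an adjusted p of 0.05 with edgeR. In the RNA polymerase III list, 3 of 22 tested genes had an unadjusted p under 0.05, all higher in KO; without Polr3b it was 2 of 21 (9.52%), near the 7.69% of all genes. These 2 were Polr2k (0.28, adjusted p = 0.538) and Polr2h (0.22, adjusted p = 0.440), small subunits shared between polymerases. Polr3a, the largest subunit and the partner of Polr3b in the catalytic core, had a log2 fold change of -0.05 (adjusted p = 0.903, edgeR). The median was 0.02 over this list and -0.01 over all genes.

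In the TCP11 family, 1 of 3 tested genes had an unadjusted p under 0.05, Tcp11l2 itself, where 7.69% of all genes did. Tcp11l1 had a log2 fold change of -0.10 (adjusted p = 0.875, edgeR). Among the RIC8 proteins and G alpha subunits, 1 of 13 did (7.69%), Gnal (0.37, adjusted p = 0.537), while Ric8a stood at -0.02. Among 14 genes of rough endoplasmic reticulum sheets, 1 did (7.14%), Sec61g (0.22, adjusted p = 0.631), a subunit of the translocon. Both shares lie at or near that of all genes.

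The other 6 lists had 0 genes with an unadjusted p under 0.05, where 7.69% of all genes did. They covered 22 clock genes, 17 chondroitin sulfate enzymes, 8 RFX factors and 3 NF-Y subunits. Also among them were 12 genes of HCF and its partners and 10 of APPL and early endosomes. The closest relatives had log2 fold changes of -0.03 (Cry2), -0.02 (Chst12), -0.07 (Rfx3), -0.12 (Nfya), -0.03 (Nfyc), -0.07 (Hcfc1) and 0.04 (Appl1).

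**Figure D4:**
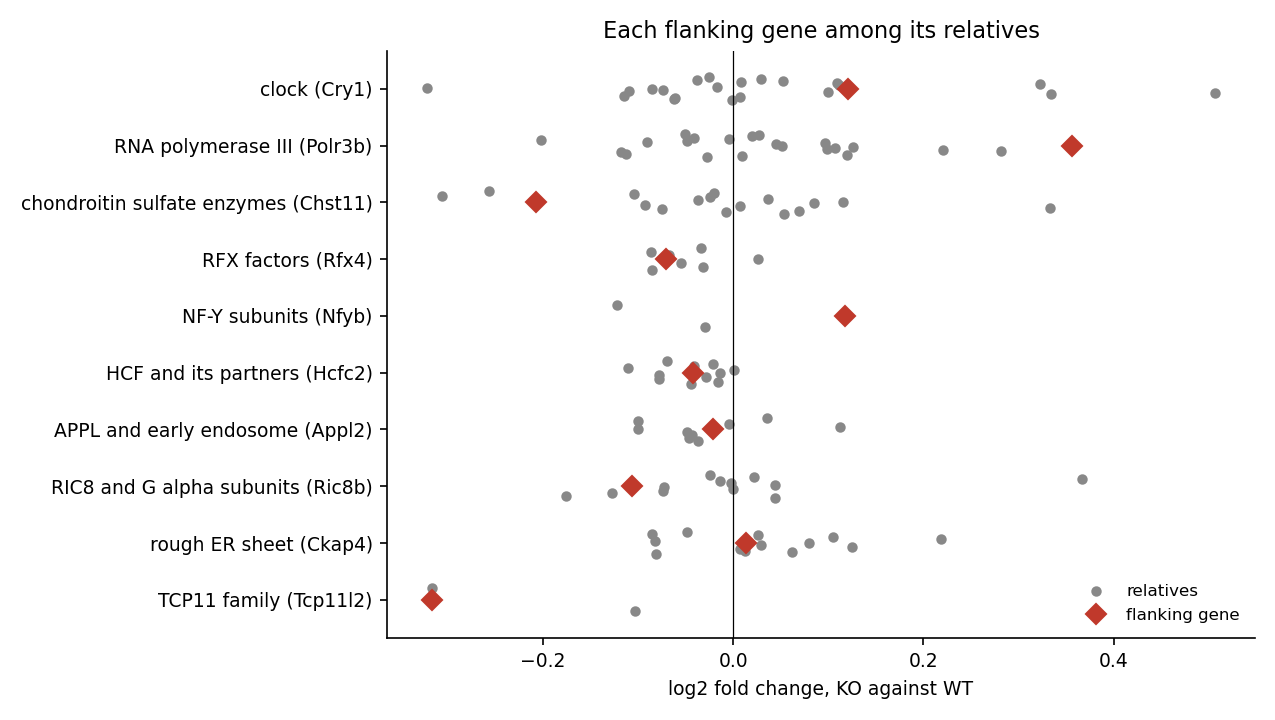
Log2 fold change of KO against WT (x axis, edgeR estimates) of each member (red diamond) and of the tested genes of its list (grey points), 1 list per line. Polr3b (0.36) is at the upper end of the RNA polymerase III genes, and Tcp11l2 (-0.32) lies beside its relative Tcp11 (-0.32, adjusted p = 0.820, edgeR).

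The genes whose profile over the 8 libraries was most like that of Polr3b, by the root mean square difference of centred log2 CPM, were Cetn3 (0.075), Dnm3 (0.077) and Gpm6a (0.078), where the profile of Polr3b itself had a root mean square of 0.187. For Nfyb, the member with the smallest p on the other side, they were Golph3l (0.039), Prom1 (0.052) and Rb1cc1 (0.054), against 0.145.

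Polr3b and Tcp11l2 kept their sign and a similar size whichever library was left out. The signs of Ckap4, Rfx4 and Appl2 turned, and those of the other members did not.

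**Figure D5:**
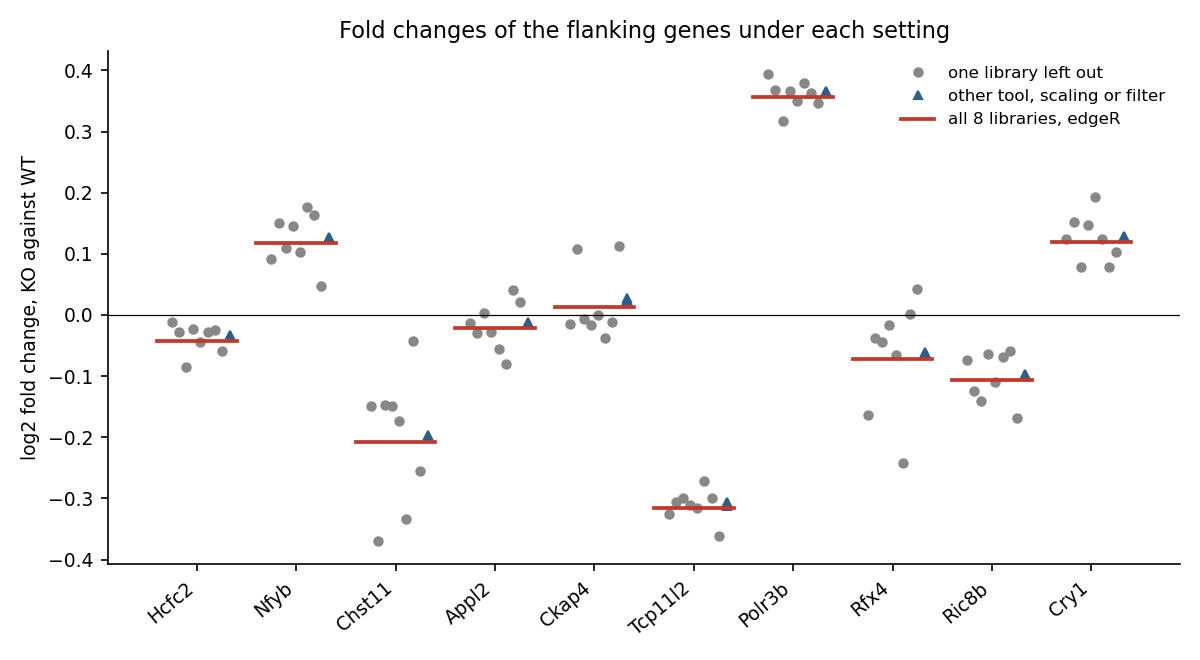
Log2 fold change of KO against WT (y axis) of each member with all 8 libraries (red line), with 1 library left out (grey points) and with another tool, scaling or filter (blue triangles). Polr3b stays between 0.317 and 0.394 and Tcp11l2 between -0.362 and -0.271 when 1 library is left out, while Ckap4, Rfx4 and Appl2 cross 0.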

How the data were processed

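The authors mapped reads of stranded poly-A libraries to mm9 with TopHat2 2.0.13, counted them per gene with HTSeq-count and deposited raw counts. Counts were read from the table by genotype, and 0 columns of per-sample values were left out. Of 21165 rows, 4641 had no count and 140 shared a symbol. The main test was the quasi-likelihood test of edgeR 4.0.16 under R 4.3.3, after TMM scaling and filterByExpr, with Benjamini-Hochberg adjustment over 12699 genes, and the code was tested on simulated data. DESeq2 1.42.0, other scaling, other filters and leaving out each library were alternatives. SE is the log2 fold change over the root of the F statistic. The p-values set the difference between genotypes against the spread between embryos, which were taken as independent, with no term for litter or sex. Members, gene lists and tests were chosen with earlier results of these data known, and the published list of the study also holds Polr3b and Tcp11l2. Named genes were the members, tested genes of the interval, up to 2 genes per direction and list with the smallest p, 1 or 2 close relatives of each member and the 3 closest profiles, plus those said to be chosen later. Positions come from GENCODE on NCBIM37.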

Additional observations from a re-analysis of the deposited data

Results flagged for a closer look

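Among 20 groups of 4 libraries (10 members in each genotype), 2 held a library far from the other 3, where chance gives about 1. Rfx4 stood at 143.5 normalized counts in KO R1, the library with the high sum of meningeal markers, above the other 3 KO libraries. Chst11 stood at 85.14 normalized counts in KO R2, above the other 3. Both values lie within the WT range of the gene.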

How the results depend on the processing

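With DESeq2, 2 members passed an adjusted p of 0.05, against 0 with edgeR: Polr3b (0.364) and Tcp11l2 (-0.312). In place of the interval, genes other than members with an unadjusted p under 0.05 numbered 2 of 6 (33.3%) within 1 Mb of Nuak1. Within 5 Mb they numbered 8 of 132 (6.06%), against 1 of 7 (14.3%) in the interval and 7.69% of all genes. When 1 library at a time was removed, Polr3b ranged from 0.317 to 0.394 (adjusted p 0.0878 to 0.323, edgeR) on the log2 scale and Tcp11l2 from -0.362 to -0.271 (0.0664 to 0.816). Signs turned in Ckap4 (-0.0369 to 0.113), Rfx4 (-0.242 to 0.0421) and Appl2 (-0.0807 to 0.0411). The number of members with an unadjusted p under 0.05 was 2 or 3, with Cry1 added without WT R1 and Ric8b without WT R4. No paired analysis was possible because no litter, sex or embryo is given for the columns. Why DESeq2 called more members was not tested.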
